A study of Arabis alpina with 12 samples.

Results

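The genes described here were higher in the shoot apex than in leaves of wild-type Arabis alpina, and higher again in the apex of the pep1-1 mutant. There are 39 of them among 35465 annotated genes. Their choice used all 3 contrasts of the study. A member's ratio of WT apex to WT leaf was 1 to below 4 on the log2 scale. Its ratio of pep1-1 to WT in the apex was 0.5 or more, and its lowest pep1-1 apex library lay above its highest WT apex library. Its ratio of pep1-1 to WT in leaves was below 0.5. A ratio is the difference of log2(mean CPM + 0.5) between groups, where CPM is the read count divided by the library sum and multiplied by 1000000. These values selected the genes, so they are given as a description and no test of them is offered.

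Arabis alpina is a perennial crucifer related to Arabidopsis. PEP1 is its orthologue of FLC, a MADS-box transcription factor that represses flowering in Arabidopsis until prolonged cold has silenced it. Plants that lack PEP1 activity can flower without such cold. The shoot apex holds the meristem, whose dividing cells give rise to leaves and later to flowers, together with the youngest leaf primordia, whereas expanded leaves are largely photosynthetic tissue.

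Plants of the accession Pajares, wild type (WT) or pep1-1, were grown on soil at 22 °C in long days and sampled 8 h after lights on. The sample labels give an age of 2 weeks and the series design 10 days. There were 3 libraries each of WT leaf, pep1-1 leaf, WT apex and pep1-1 apex, 12 in all, with 19746210 to 43695184 reads per library over 1 transcript per gene. The labels do not say whether replicates were separate plants, so the spread may be technical. Genotypes were taken from the genotype label, since mutant titles read PEP1. All libraries are of 1 age, and whether the mutant apex was further advanced in development was not tested.

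The deposited tables pair no identifier with a gene name, so PEP1 was not checked in these libraries, no marker of apex or leaf was looked up, and functions of the members cannot be given. Members are named here by identifier for the 2 with the largest apex ratio and otherwise by position, in the coordinates of the deposited tables. The members were proposed as genes raised in the mutant apex alone. The leaf values go against that word for several of them, so the genes are called by the rule. The 2 genotypes may differ at other loci than PEP1, and such differences and the mutation cannot be told apart here.

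Of 1874 genes with a WT apex to leaf ratio of 1 to below 4, termed apex-preferred, 94 (5.02%) met both apex criteria, against 1.31% of all genes with apex reads. The rule used this contrast. The 2 shares also differ in expression level, and the added 0.5 CPM shrinks the ratios of low genes. The median WT apex level was 24.1 CPM for apex-preferred genes and 4.87 CPM for all genes with any read. Among the 94, 55 had a leaf ratio of 0.5 or more and 39 had a lower one. The members' apex ratios ran from 0.51 to 2.54 with a median of 0.90, and 14 members were at 1 or more. Their WT apex to leaf ratios ran from 1.00 to 3.88 with a median of 1.61, close to the 1.56 of all apex-preferred genes. All 39 had every WT apex library above every WT leaf library, a separation seen in 15.1% of genes with reads, and every pep1-1 apex library above every pep1-1 leaf library, seen in 14.8%. The rule largely fixes both.

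**Figure D1:**
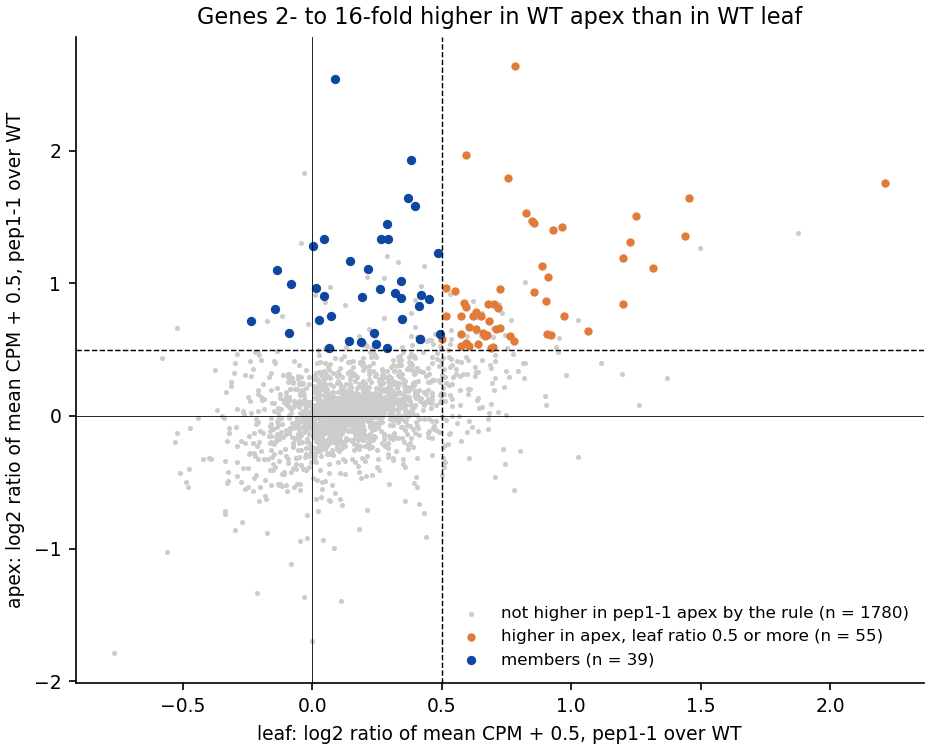
Log2 ratio of pep1-1 to WT in leaf (x axis) and in apex (y axis) for the 1874 apex-preferred genes, 1 point per gene. Dashed lines mark the limits of 0.5. The 39 members lie left of the vertical line at apex ratios from 0.51 to 2.54, most of them right of 0, and the 55 genes higher in apex with a leaf ratio of 0.5 or more lie to the right.

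Aa_G421880 had the largest apex ratio. It lies on chromosome 3 (9755242 to 9756686). It stood at 1.99, 1.13 and 0.557 CPM in the WT apex libraries and at 19.96, 3.48 and 5.17 CPM in the mutant ones. Its leaf values were 0.129, 0.137 and 0.272 CPM for WT and 0.551, 0.0445 and 0.0691 CPM for pep1-1. The apex genotypes did not overlap, the leaf genotypes did, and pep1-1 apex replicate 1 was the highest library by far. Mean apex levels were 1.23 ± 0.721 CPM for WT against 9.54 ± 9.06 CPM for pep1-1 (SD, n = 3 each), a log2 ratio of 2.54 that was 1.48 without pep1-1 apex replicate 1.

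Aa_G46220 on chromosome 8 (34911982 to 34913504) followed, at 0.356, 1.19 and 0.608 CPM in WT apex and 7.21, 2.03 and 3.16 CPM in pep1-1 apex. Replicate 1 was again the highest mutant library, and the ratio of 1.93 was 1.34 without it. In leaf this gene was read 3, 1 and 1 times in WT and 15, 3 and 3 times in pep1-1, which is 0.0773, 0.0458 and 0.0272 CPM against 0.413, 0.133 and 0.104 CPM. All mutant leaf libraries thus lay above all WT leaf libraries, and the leaf means differed 4.33-fold. The leaf ratio was nevertheless 0.38, because 0.5 CPM is added to both means.

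Mutant apex libraries were closest to each other, among members with a ratio above 1.5, in a gene on chromosome 4 (4261315 to 4262493). It stood at 8.05, 6.61 and 7.09 CPM in WT apex and 21.4, 21.8 and 25.1 CPM in pep1-1 apex. Its leaf values were 2.27, 1.56 and 1.47 CPM in WT and 2.84, 2.09 and 2.52 CPM in pep1-1. The lowest mutant apex library was 2.66 times the highest WT one, and the leaf genotypes overlapped. Its apex ratio of 1.59 stayed between 1.51 and 1.66 when any 1 apex library was left out.

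The member on chromosome 3 at 27141660 to 27142654 was similarly even, at 1.72, 2.11 and 2.28 CPM in WT apex and 5.25, 5.21 and 5.17 CPM in pep1-1 apex. Its lowest mutant library was 2.27 times the highest WT one. This quotient was below 2 for the other 37 members and below 1.1 for 11 of them. Leaving out each of the 6 apex libraries in turn kept the apex ratio at 0.5 or more for 27 members and took it below 0.5 at least once for 12.

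In other members 1 library set most of the apex ratio. One of them, on chromosome 3 (27453503 to 27455077), stood at 9.36, 5.84 and 9.07 CPM in WT apex and 9.84, 40.4 and 11.03 CPM in pep1-1 apex. Another, on chromosome 7 (18721948 to 18723952), stood at 10.2, 8.11 and 11.9 CPM in WT apex and 12.2, 40.5 and 13.7 CPM in pep1-1 apex. In both, pep1-1 apex replicate 2 was far above all other libraries, and the other 2 mutant libraries lay just above the highest WT one. Without that library the ratios fell from 1.28 to 0.35 and from 1.101 to 0.35. Leaf means of the chromosome 3 gene were 2.96 ± 0.349 CPM for WT and 2.97 ± 0.356 CPM for pep1-1, and those of the chromosome 7 gene were 4.07 ± 0.442 and 3.65 ± 0.106 CPM (SD, n = 3 each).

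**Figure D2:**
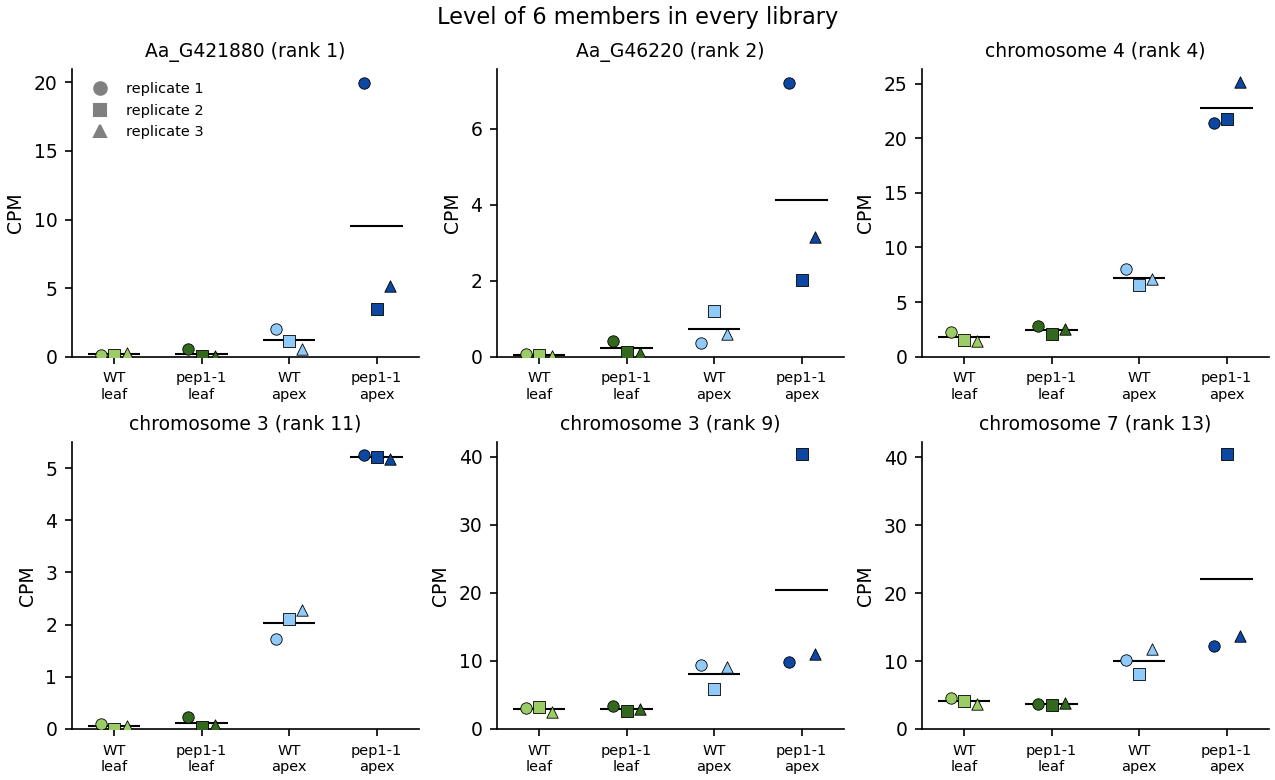
CPM (y axis, linear, from 0) of 6 members in each of the 12 libraries, by group (x axis), with a symbol per replicate and a line at the group mean. Mutant apex replicate 1 is the high point of Aa_G421880 and Aa_G46220, replicate 2 that of the members of rank 9 and 13, and the members of rank 4 and 11 have mutant apex libraries close to each other.

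The 4 members whose highest mutant apex library was at least 2 times the next were these 2 and the 2 named by identifier. Across the members, the mutant maximum fell in replicate 1 for 14, replicate 2 for 7 and replicate 3 for 18, and the minimum in replicate 2 for 24. Replicate 3 was also the highest mutant apex library for 56.4% of all apex-preferred genes, and replicate 2 the lowest for 32.7%. The median member stood 0.91, 0.64 and 0.98 above its WT apex mean in mutant replicates 1, 2 and 3 on the log2 scale, and at -0.08, -0.08 and 0.13 in the WT apex libraries. For all apex-preferred genes these medians were -0.01, 0.02 and 0.14 in the mutant. The rule asked for every mutant apex library above every WT one, so the members' higher medians follow from their choice.

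**Figure D3:**
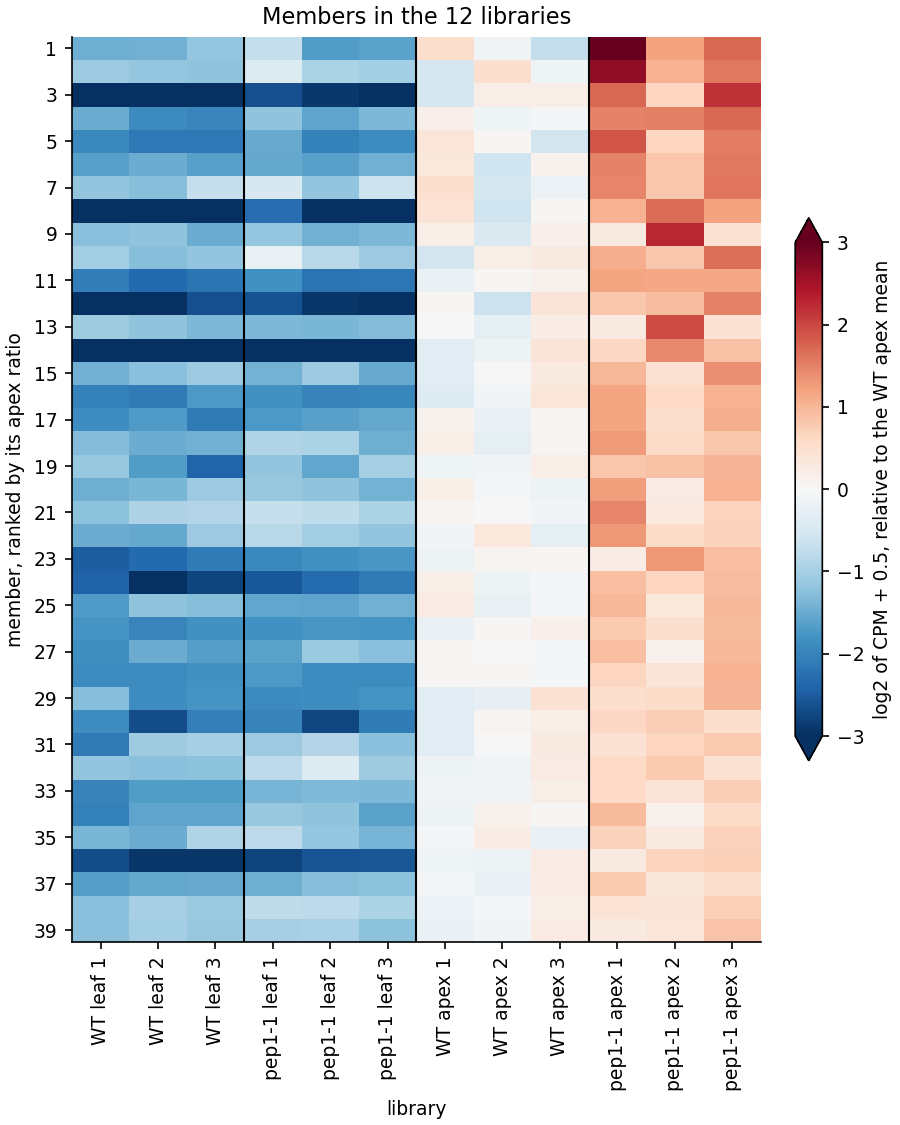
The 39 members (rows, ranked by apex ratio) in the 12 libraries (columns), coloured by log2(CPM + 0.5) relative to the gene's mean in WT apex; values beyond the scale take its end colour. Leaf columns are mostly blue, WT apex columns pale and mutant apex columns red, with replicate 2 the palest mutant column for 24 members.

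In leaves, 34 of the 39 members had a higher mean in pep1-1 than in WT, against 43.1% of all genes with leaf reads and 80.8% of apex-preferred genes. The WT leaf libraries enter both this ratio and the organ ratio that chose the members. The leaf ratios ran from -0.24 to 0.49 with a median of 0.25, where all apex-preferred genes had a median of 0.15. In 7 members every mutant leaf library lay above every WT leaf library, which is 17.9% of them, against 5.29% of genes with leaf reads and 26.1% of apex-preferred genes. No member showed the opposite order, which 9.49% of genes with leaf reads and 2.08% of apex-preferred genes did. A changed number of cells of a type and a changed amount of RNA per cell cannot be told apart in such bulk samples.

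The member just below the leaf limit, on chromosome 7 (26522012 to 26524039), was one of these 7. It stood at 0.412, 0.366 and 0.381 CPM in WT leaf and 0.689, 1.07 and 0.484 CPM in pep1-1 leaf. Its apex values were 1.34, 1.41 and 1.92 CPM in WT and 2.59, 3.03 and 2.33 CPM in pep1-1, so the genotypes were apart in both organs. Its ratios were 0.49 in leaf and 0.62 in apex. The nearest gene outside, on chromosome 4 (16487320 to 16489175), had a leaf ratio of 0.50 and an apex ratio of 0.58.

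Many members were hardly read in leaves, where the added 0.5 CPM weighs most. In WT leaf 17 of 39 members were under 0.5 CPM, against 7 of the 55 genes with the higher leaf ratio and 17.1% of apex-preferred genes. Those 17 had between 1 and 38 reads over the WT leaf libraries and between 2 and 63 over the mutant ones. In 8 of them the mutant leaf mean was at least 2 times the WT mean. That count rests on few reads, and no share over other genes this low in leaf is given here. With 0.1 CPM added in place of 0.5 CPM, 12 of the 39 members had a leaf ratio of 0.5 or more, 9 of them among the 17.

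Among them, a member on chromosome 1 (18768440 to 18769254) had a steep organ difference. It stood at 6.39, 7.37 and 10.8 CPM in WT apex and 12.96, 23.0 and 15.4 CPM in pep1-1 apex. In leaf it was at 0.129, 0 and 0.136 CPM in WT and 0.193, 0.267 and 0.277 CPM in pep1-1, from 0 to 8 reads a library. Mutant libraries lay above WT in both organs. Its organ ratio of 3.88 was the highest of the members.

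The same order in leaf held for a member on chromosome 7 (19868374 to 19869135), with 0.0773, 0.137 and 0.245 CPM in WT leaf and 0.331, 0.400 and 0.449 CPM in pep1-1 leaf. Its apex values were 2.38, 2.88 and 2.84 CPM in WT and 3.25, 7.42 and 5.52 CPM in pep1-1. Read depth in leaf was 3 to 9 reads a library in WT and 9 to 13 in the mutant.

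By contrast, 3 members read at 1 CPM or more in WT leaf had a lower leaf mean in the mutant. One is the chromosome 7 gene with the single high mutant apex library, at a leaf ratio of -0.14. Another lies on chromosome 1 (17148675 to 17152261). It stood at 3.37, 4.99 and 4.74 CPM in WT leaf and 3.802, 3.74 and 4.18 CPM in pep1-1 leaf, and at 14.6, 10.3 and 11.6 CPM in WT apex and 24.98, 15.4 and 24.5 CPM in pep1-1 apex. The third, on chromosome 7 (22792631 to 22794645), stood at 2.01, 0.961 and 1.72 CPM in WT leaf, 1.79, 0.890 and 1.62 CPM in pep1-1 leaf, 6.71, 9.21 and 10.1 CPM in WT apex and 13.5, 14.8 and 12.7 CPM in pep1-1 apex. Leaf libraries of the 2 genotypes overlapped in all 3, while their apex libraries did not.

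The 6 members with the highest CPM in pep1-1 apex, a value not corrected for transcript length, had apex ratios from 0.51 to 1.11. One on chromosome 6 (4717210 to 4721629) stood at 93.5, 74.5 and 80.6 CPM in WT apex and 156, 130 and 157 CPM in pep1-1 apex, a ratio of 0.83. Its leaf means were 12.1 ± 2.75 CPM in WT and 16.3 ± 2.48 CPM in pep1-1 (SD, n = 3 each), with overlapping libraries. One on chromosome 3 (6145070 to 6146684) stood at 64.0, 53.8 and 50.7 CPM in WT apex and 135, 66.3 and 115 CPM in pep1-1 apex, a ratio of 0.90. Its mutant replicate 2 was 1.04 times the highest WT library. Leaf means were 22.6 ± 3.20 CPM for WT and 23.3 ± 2.27 CPM for pep1-1 (SD, n = 3 each), with overlapping libraries.

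The largest ratio of these 6 was in a gene on chromosome 4 (22594190 to 22596266), with 17.9, 10.8 and 22.5 CPM in WT apex and 30.4, 32.7 and 48.9 CPM in pep1-1 apex. Its leaf means were 1.64 ± 0.588 CPM for WT and 1.99 ± 0.334 CPM for pep1-1 (SD, n = 3 each). Another member on chromosome 4 (22376827 to 22377614) stood at 26.7, 27.3 and 33.0 CPM in WT apex and 43.8, 37.9 and 49.0 CPM in pep1-1 apex. That gene was also higher in every mutant leaf library, with means of 8.15 ± 1.08 CPM for WT and 11.03 ± 0.260 CPM for pep1-1 (SD, n = 3 each). Its leaf ratio of 0.42 kept it among the members.

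Further members with large ratios were read less. On chromosome 3, a member (8957515 to 8959769) stood at 7.75, 13.04 and 12.9 CPM in WT apex and 38.01, 17.9 and 52.6 CPM in pep1-1 apex, a ratio of 1.64. On chromosome 5, a member (2913986 to 2915072) stood at 6.65, 3.06 and 5.01 CPM against 10.6, 16.7 and 12.1 CPM, a ratio of 1.33. On chromosome 2, a member (20430152 to 20431144) stood at 2.05, 3.73 and 4.00 CPM against 7.53, 6.04 and 11.4 CPM, a ratio of 1.23. The highest mutant library was replicate 3 in the chromosome 3 and chromosome 2 genes and replicate 2 in the chromosome 5 gene.

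At a lower level, a member on chromosome 4 (17151482 to 17153326) had 48, 17 and 23 reads in WT apex and 122, 89 and 179 in pep1-1 apex. Scaled to library depth, this is 1.43, 0.520 and 1.16 CPM against 3.81, 2.23 and 4.10 CPM. It had 1 read in WT leaf in all and 3 in pep1-1 leaf. Similarly, a member on chromosome 3 (9131144 to 9133414) had 52, 16 and 15 reads in WT apex and 110, 80 and 170 in pep1-1 apex. In CPM these are 1.54, 0.490 and 0.760 against 3.44, 2.00 and 3.89. Their apex ratios were 1.34 and 1.33. The fewest reads of any member over the 12 libraries were 419 and the most 40543, and 12 members were under 5 CPM in pep1-1 apex.

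The members with the smallest apex ratios lie on chromosome 8 (35772160 to 35772662), chromosome 1 (8197404 to 8200173) and chromosome 8 (6094229 to 6097425), at 0.54, 0.51 and 0.51. The chromosome 1 gene stood at 103, 114 and 136 CPM in WT apex and 157, 154 and 195 CPM in pep1-1 apex. It was higher in every mutant leaf library too, with means of 54.1 ± 4.90 CPM for WT and 66.1 ± 5.11 CPM for pep1-1 (SD, n = 3 each). Just outside the limit were genes on chromosome 1 (118831 to 121945), chromosome 8 (40037576 to 40038520) and chromosome 1 (16174938 to 16177955), at 0.50, 0.48 and 0.48. The first of these rounds to the limit and lies under it. In all, 121 genes missed the rule by the apex ratio alone, 41 by overlap of the apex libraries alone and 189 by an organ ratio below 1 alone. The nearest organ ratios were 1.00 inside, on chromosome 1 (467645 to 469160), and 0.98 outside, on chromosome 2 (27920239 to 27921956).

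A run of neighbouring genes on chromosome 3 held a pair of members. One was the evenly raised gene (27141660 to 27142654) and the other (27138240 to 27140446) stood at 2.38, 1.77 and 1.01 CPM in WT apex and 7.74, 2.96 and 5.95 CPM in pep1-1 apex. They are 1213 bp apart with 1 short model between them. That model (27140711 to 27141035) stood at 0.683, 0.826 and 0.354 CPM in WT apex and 3.06, 0.802 and 1.60 CPM in pep1-1 apex. It missed the rule because its lowest mutant library lay under its highest WT library.

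The next model downstream (27144790 to 27145874) stood at 3.18, 1.07 and 1.32 CPM in WT apex and 10.7, 5.34 and 6.91 CPM in pep1-1 apex. It met the apex criteria with a ratio of 1.79 but had a leaf ratio of 0.75, with leaf means of 0.0798 CPM in WT and 0.478 CPM in pep1-1. All 4 models in a row thus had a higher mean in the mutant apex, with log2 ratios of 1.45, 1.05, 1.17 and 1.79. The models on either side, at 27135670 to 27137764 and 27150713 to 27153844, had apex ratios of -0.34 and 0.16. Whether the 4 models are near-identical copies that share reads was not tested, since no sequence was used.

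No other members lay within 10 kb of each other. The next closest pair, also on chromosome 3 (from 8957515 and from 9131144), was 171374 bp apart. Spacing beyond 10 kb was not compared with that of other genes. Of the 39, 9 (23.1%) were on chromosome 3, which held 12.0% of apex-preferred genes. Chromosomes 1 and 8 had 6 (15.4%) each, against 12.5% and 16.7% of apex-preferred genes. Chromosomes 4 and 7 had 5 (12.8%) each, against 9.87% and 9.28%. Chromosome 5 had 3 (7.69%), against 10.4%. Chromosomes 2 and 6 had 2 (5.13%) each, against 9.39% and 12.7%, and 1 member was on a scaffold. Their annotated spans ran from 503 to 6815 bp with a median of 1615 bp, against 1910 bp for apex-preferred genes. None overlaps another gene model. Only 3 have more than 1 annotated transcript, and the transcripts not used gave apex ratios of 0.51, 0.58, 0.58 and 0.70.

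Because all 12 libraries chose the members, the choice was repeated without 1 WT and 1 pep1-1 apex library, and the left-out mutant library was compared with the left-out WT one. The rule on the other 10 libraries picked 42 to 139 genes, of which 28 to 35 were among the 39. In the 9 possible choices, 40.3% to 100% of the picked genes were higher in the left-out mutant library, with a mean of 74.1%. For all apex-preferred genes the share was 47.6% to 72.0%, with a mean of 59.5%, and for all genes with reads 36.2% to 48.3%. The median log2 ratio of the picked genes was -0.17 to 1.02 in the left-out libraries and 0.66 to 0.92 in the libraries that chose them.

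The shares differed with the libraries left out. With WT replicate 2 and mutant replicate 3 left out, 42 of 42 picked genes were higher in the mutant library. With WT replicate 3 and mutant replicate 1 left out, 56 of 139 were, below the 47.6% of apex-preferred genes. In the other 8 choices the picked genes had the larger share. The genes are not independent and the choices share libraries, so these shares carry no p-value.

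**Figure D4:**
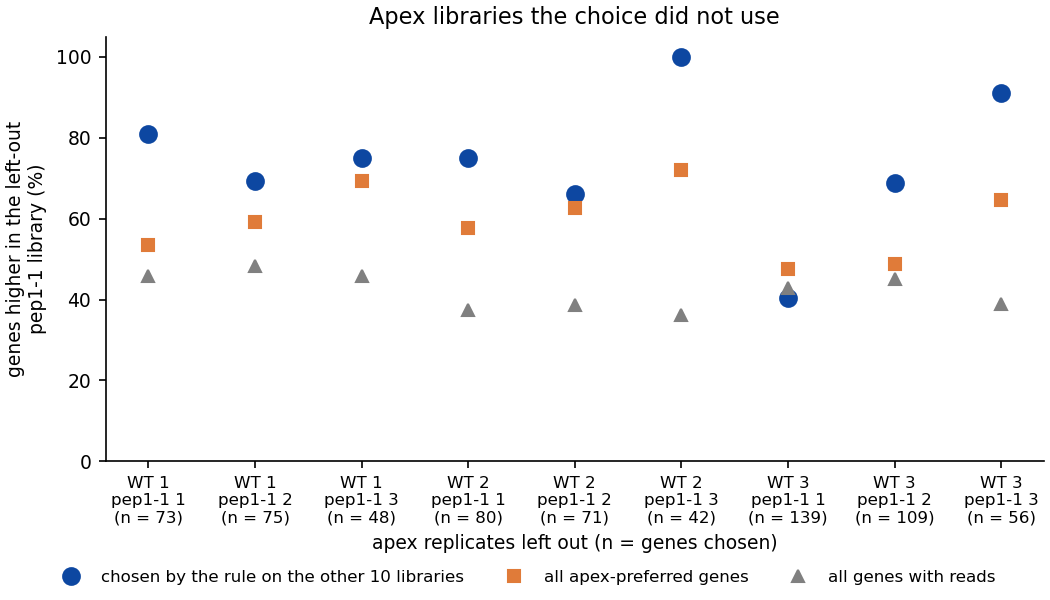
Share of genes (y axis, percent) that were higher in the left-out pep1-1 than in the left-out WT apex library, for the 9 choices of libraries (x axis, with the number of genes picked). Circles are genes picked by the rule on the other libraries, squares all apex-preferred genes and triangles all genes with reads; circles lie above squares in 8 choices and below in the choice of WT replicate 3 with pep1-1 replicate 1.

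In a fit across all genes with edgeR's quasi-likelihood test, 3 of the 39 members were higher in pep1-1 apex at an adjusted p under 0.05, where 0.153% of genes tested were. They are the evenly raised genes on chromosome 4 (4261315 to 4262493) and chromosome 3 (27141660 to 27142654) and a gene on chromosome 8 (38668227 to 38675041). The last stood at 3.36, 3.46 and 4.30 CPM in WT apex and 6.93, 7.24 and 8.01 CPM in pep1-1 apex. All 39 had an unadjusted p under 0.05, as did 10.7% of genes, and all 39 were higher in WT apex than in WT leaf at an adjusted p under 0.05, as were 32.1%. The rule used these contrasts, so nothing is read from the counts. The apex count varied with the test. DESeq2 called 28 members and 412 of 22157 genes, and a fit of all 12 libraries in edgeR called 18 members and 320 of 23517 genes, where edgeR on the apex libraries called 52 of 22157 genes. It also varied with the library left out. It was 1 without WT apex replicate 1, WT apex replicate 2 or pep1-1 apex replicate 1. Over all genes these fits called 15 of 22311, 19 of 22371 and 22 of 22437. Without pep1-1 apex replicate 2 the count of members was 9, with 140 of 22352 genes called.

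In leaf, 26 members passed the filter on low counts. None had an adjusted p under 0.05 in edgeR, against 0.414% of genes, and 7 had an unadjusted p under 0.05, against 9.74%. DESeq2 called 0 of them and 322 of 22936 genes. Whether the genotype difference was larger in apex than in leaf was tested by the interaction term. In edgeR 0 of 39 members passed, as did 0% of all genes, and 8 members had an unadjusted p under 0.05 where 4.21% of genes did. DESeq2 called 1 member, the chromosome 4 gene (4261315 to 4262493), with a log2 interaction of 1.20 and a DESeq2 adjusted p of 0.0495, among 9 of 23517 genes called. The rule used both ratios behind this term, so nothing is read from these counts. The chromosome 4 gene had a mean of 1.77 ± 0.437 CPM in WT leaf and 2.48 ± 0.375 CPM in pep1-1 leaf (SD, n = 3 each), and its edgeR adjusted p for the interaction was 1.00.

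Genes marking each organ by their WT ratio, with no gene names behind them, were summed per library. The same WT libraries chose these genes, so differences of the sums from WT are not independent of the choice. The summed CPM of 91 genes at least 16-fold higher in WT leaf was 168 to 219 in the WT apex libraries and 107 to 166 in the mutant apex libraries, with no overlap. That of 45 genes at least 16-fold higher in WT apex was 18795 to 24509 in WT apex and 20773 to 31646 in mutant apex, with overlap. Mutant apex replicate 3 had the lowest leaf sum and the highest apex sum of these libraries. In leaf, the apex sum was 764 to 1011 in WT and 1283 to 1759 in the mutant, with no overlap. The part of these differences in the members' ratios was not tested. Without mutant apex replicate 1, 2 or 3 the rule gave 74, 72 and 38 genes, of which 35, 37 and 34 were members. The leaf sums of these libraries were 166, 165 and 107, and the lowest WT apex one was 168. Whether the counts of genes relate to the sums was not tested.

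Among apex-preferred genes, more met the apex criteria upward than downward in the mutant, with 94 higher (5.02%) and 26 lower (1.39%). Of genes less than 2-fold apart between organs, 1.03% were higher and 0.98% lower. Without apex-preferred genes whose leaf ratio changed by 0.5 or more in the same direction, the counts were 39 and 25. The median leaf ratio of apex-preferred genes was 0.15. Of 5389 genes 2- to 16-fold higher in WT leaf, 40 were higher and 195 lower in the mutant apex. The organ and genotype ratios share the WT apex libraries, so the classes are not independent of the difference. The median apex ratio was 0.05 for all apex-preferred genes and -0.12 for those leaf genes.

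**Figure D5:**
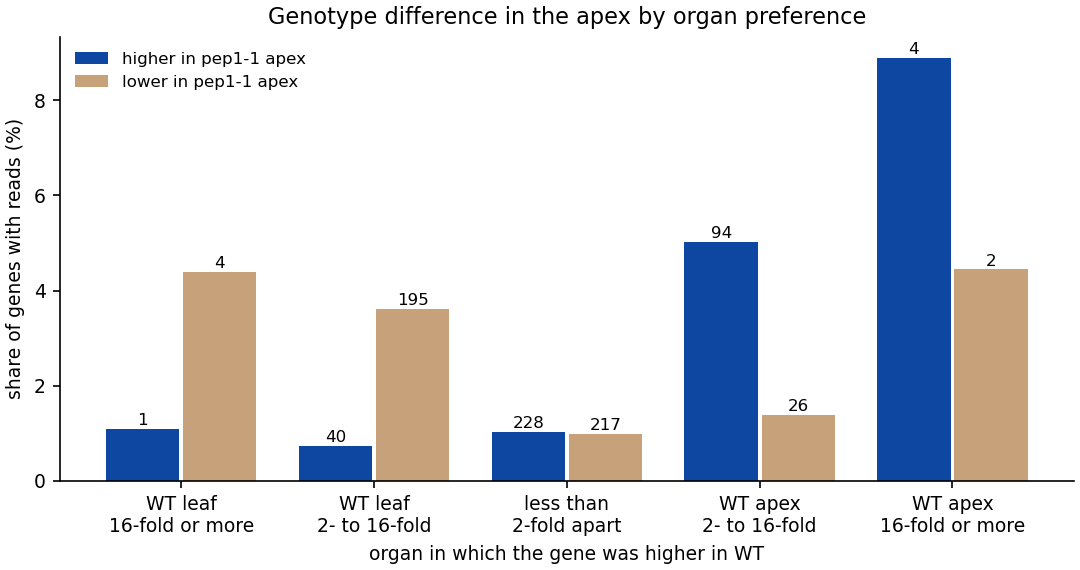
Share of genes with reads (y axis, percent) that were higher or lower in pep1-1 apex by at least 0.5 on the log2 scale with no overlap of libraries, for 5 classes of organ preference in WT (x axis); numbers above the bars are genes. In the class of the members 94 genes were higher and 26 lower, and among genes 2- to 16-fold higher in WT leaf 40 were higher and 195 lower.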

How the data were processed

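The authors deposited raw counts of reads for each annotated transcript. The submitters' processing notes name TopHat, bedtools and DESeq2 1.10.0 without a role. Genome build, annotation version and use of strand were not given in the sources used here. Reads of overlapping, antisense or near-identical genes may therefore be mixed. Of 39814 transcripts, the one with most reads was used for each of 35465 genes; the others held 4.90% to 5.65% of a library's reads. CPM was scaled to the library sum, with 0.5 CPM added in ratios. That scale set the median gene with at least 120 reads at -0.52 for apex over leaf in WT, and TMM factors at -0.02, so organ ratios are relative to this shift.

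All genes were fitted with edgeR 4.0.16 in R 4.3.3 (TMM factors, filterByExpr, robust quasi-likelihood F test, Benjamini-Hochberg adjustment), leaf and apex apart for genotype and all 12 libraries together for the interaction and for organs. DESeq2 1.42.0 was an alternative. The code was tested on simulated counts. Members, lists and tests were chosen with earlier results of these data known. Members in the text are the 10 with the largest apex ratio, the 6 with the most CPM in mutant apex, the 4 with the lowest leaf ratio among those of 1 CPM or more in WT leaf, those beside the apex limit, and neighbours within 10 kb. Another 5 members, on chromosomes 1, 7 and 8, and the non-members beside other limits or in the run on chromosome 3 were chosen after their values were seen. Lists of named marker genes were not used, since identifiers have no names. No replicate pair agreed within counting noise (lowest chi-square over degrees of freedom 5.54). This value was 40.3 to 86.6 for pairs of pep1-1 apex libraries and 13.3 to 19.9 for WT apex. It was 5.54 to 25.1 for WT leaf and 7.64 to 9.51 for pep1-1 leaf, so pep1-1 apex replicates differed most. The alternatives were DESeq2 size factors and Wald test, no filter, TMM scaling of the rule, other added CPM, 1 fit of all libraries, the replicate number as a block, and each library left out.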

Additional observations from a re-analysis of the deposited data

How the results depend on the processing

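Of 78 alternative values, 64 stayed within 1.5 times the count or within the spread over library choices, and 14 moved. Of the 64, 16 were organ calls and 10 leaf calls, which the rule largely fixes, and 15 were interaction calls at 0. Of the apex calls 7 moved and 4 stayed, and of the numbers of members 5 moved and 14 stayed. The number of members was 93 with TMM factors, which kept 38 of the 39 and added 55, of which 36 had an organ ratio below 1 on the library-sum scale. It was 14 with an apex ratio of at least 1, by construction. It was 36 with 1 CPM added and 42 with 0.1 CPM added, which kept 30 and 27 of the 39. Leaving out 1 library gave 35 to 80 members: 80 without WT apex replicate 3, 74 without pep1-1 apex replicate 1 and 72 without pep1-1 apex replicate 2, with 36, 35 and 37 of the 39 kept. The share higher in the left-out mutant library was 68.8% to 76.4% under the alternatives. Members called in apex numbered 28 with the DESeq2 Wald test (412 of 22157 genes) and 18 with all 12 libraries in 1 fit (320 of 23517 genes). With 1 library left out they numbered 1 to 9, where 15 to 140 of all genes were called. In leaf 0 to 1 were called with 1 library left out, the 1 being without WT leaf replicate 1. That fit called 445 of 22992 genes, against 95 of 22936 with all leaf libraries. For the interaction the DESeq2 count was 1, and 0 members passed in edgeR under every alternative run. The organ call held for 38 or 39 members throughout. The cause of the other shifts was not tested.

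As a check of pairing, deviations from the group mean were correlated between same-numbered WT and mutant libraries. In leaf r was 0.03, 0.32 and -0.19, and in apex 0.45, -0.02 and 0.46. Since not every value was above 0.1, the samples were treated as unpaired. With the replicate block, 24 members were called in apex, 0 in leaf, 0 for the interaction and 39 between organs. Over all genes the block called 600 of 22157 in apex, against 52 without it, 54 of 22936 in leaf, 0 of 23517 for the interaction and 15423 of 23517 between organs. In apex, WT replicate 3 and mutant replicate 1 deviated in opposite directions (-0.50), and not every library correlated best with its own number.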
